A study of Homo sapiens with 16 samples.

Results

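The 49 genes described here carry out or control DNA replication and S phase: E2F transcription factors and cyclins E, the proteins that license and fire replication origins, the polymerases and their clamp, the enzymes that supply deoxynucleotides, and the factors that watch the fork and rebuild chromatin behind it. They were found by symbol in the deposited gene table, where all 49 of 49 were present among 26475 symbols, and all 49 were among the 16012 that passed the low-count filter. The libraries are poly-A RNA from A375 MA2-Luc, an established human melanoma line, given to immunodeficient NSG mice by the retro-orbital route at 250000 cells and labelled as lung metastases. There were 4 groups of 4 libraries. KT is the ketogenic diet with inhibitors of BRAF kinase and MEK1/2, by oral gavage 3 times a week for 5 weeks. KC is the ketogenic diet with no treatment. HT is the high fat diet with the same inhibitors on the same schedule. HC is the high fat diet with no treatment. The labels name neither the compounds nor their doses, give no vehicle for KC and HC, give no age of the mice and do not say whether each library came from its own mouse, so p-values measure the spread between these libraries. Every group shares the cell line, the host and a special diet, and none was fed a standard chow. The design text mentions culture of the line as well, so a culture step between lung and RNA extraction cannot be told from the labels.

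Before a cell copies its genome, the origin recognition complex, CDC6 and CDT1 load the MCM helicase onto DNA. Cyclin E kinase and CDC7 then let CDC45 and the GINS complex turn that helicase on, and polymerases, primase, the PCNA clamp and its loader copy both strands. Most of these genes are transcribed late in G1 by E2F factors, which are released when cyclin-dependent kinases phosphorylate the retinoblastoma protein, and in BRAF-mutant melanoma cells the MAPK pathway is a known input to that step.

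Promoter sequences show what the genes have in common at their start sites. RefSeq windows of 250 bases before to 50 bases after the gene start (build GRCh38.p14) were matched by symbol for 43 of the 49 genes, those not matched being CCNE2, E2F8, GINS4, MCM4, MCM5 and POLD3. Each was searched on both strands for 4 octamers of the E2F type, TTTCCCGC, TTTGGCGC, TTTCGCGC and TTTGCCGC. At least 1 of them lay in 22 of the 43 windows, or 51.2%, against 908 of all 27305 windows in the table, or 3.33%. Matches of different octamers can overlap each other. The pentamer CCAAT, the NF-Y type box, lay in 23 of the 43 windows on either strand, or 53.5%, against 35.7% of all windows. A match is a description of these letters and not of a bound site. The 5 windows printed span the range: MCM6 and E2F1 with several matches, CDC6 with 1, and RRM2 and DUT, whose levels differed much and little between the groups, with none. Capitals mark the E2F octamers, and all are written 5′ to 3′ on the strand of the gene.
MCM6 (chr2:135876394-135876693, minus strand): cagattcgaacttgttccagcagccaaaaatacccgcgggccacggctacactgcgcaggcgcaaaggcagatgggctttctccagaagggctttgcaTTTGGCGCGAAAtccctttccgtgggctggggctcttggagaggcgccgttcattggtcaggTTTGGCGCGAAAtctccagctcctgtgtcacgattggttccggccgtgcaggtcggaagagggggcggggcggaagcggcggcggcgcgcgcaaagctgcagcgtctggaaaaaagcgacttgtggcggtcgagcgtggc
E2F1 (chr20:33686336-33686635, minus strand): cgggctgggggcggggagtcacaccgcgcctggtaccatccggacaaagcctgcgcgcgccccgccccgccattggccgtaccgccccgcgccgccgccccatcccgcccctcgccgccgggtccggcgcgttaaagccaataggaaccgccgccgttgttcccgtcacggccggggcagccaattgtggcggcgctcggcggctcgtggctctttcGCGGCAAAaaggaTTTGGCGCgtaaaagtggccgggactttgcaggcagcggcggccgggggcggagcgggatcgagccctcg
CDC6 (chr17:40287629-40287928, plus strand): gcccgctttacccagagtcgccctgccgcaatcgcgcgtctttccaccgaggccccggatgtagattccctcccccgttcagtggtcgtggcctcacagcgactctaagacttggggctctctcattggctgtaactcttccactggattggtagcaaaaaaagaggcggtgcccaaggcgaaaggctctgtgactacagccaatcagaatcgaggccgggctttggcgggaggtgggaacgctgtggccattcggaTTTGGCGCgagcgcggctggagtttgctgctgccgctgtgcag
RRM2 (chr2:10122489-10122788, plus strand): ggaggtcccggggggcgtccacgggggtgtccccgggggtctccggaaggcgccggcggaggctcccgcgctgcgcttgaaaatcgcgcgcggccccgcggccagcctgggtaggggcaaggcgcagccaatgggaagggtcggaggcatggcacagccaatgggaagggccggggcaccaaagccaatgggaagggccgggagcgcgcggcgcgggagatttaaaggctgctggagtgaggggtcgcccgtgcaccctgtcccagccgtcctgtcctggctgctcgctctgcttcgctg
DUT (chr15:48330845-48331144, plus strand): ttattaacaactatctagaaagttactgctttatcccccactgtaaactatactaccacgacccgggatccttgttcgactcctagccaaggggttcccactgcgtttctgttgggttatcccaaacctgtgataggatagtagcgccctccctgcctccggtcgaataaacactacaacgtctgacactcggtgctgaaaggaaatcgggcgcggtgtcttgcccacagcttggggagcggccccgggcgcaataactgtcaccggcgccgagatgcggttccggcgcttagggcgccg
In MCM6 the 4 matches form overlapping pairs, TTTGGCGC at 152 and 90 bases before the start and TTTCGCGC on the other strand 4 bases further on. In E2F1 the matches lie 20 and 33 bases before the start, and in CDC6 the match lies 7 bases after it. Genes with a match had a median log2 fold change of 1.22 for HT over HC and 1.18 for KC over HC (n = 22). Genes without one had 0.96 and 0.93 for the same comparisons (n = 21). The ranges overlapped almost fully. For HT over HC they were 0.40 to 2.33 with a match and 0.24 to 2.50 without. For KC over HC they were 0.55 to 2.08 and 0.31 to 2.12. The difference between the medians was not tested.

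Levels are CPM, counts scaled to a common library size by the trimmed mean of M values, and fold changes are on the log2 scale from edgeR, each with its standard error (SE) from a fit to all 16 libraries. A call is an adjusted p under 0.05. Totals were 37.1 to 77.3 M (mega) estimated counts a library, and ribosomal RNA took 4.10 to 8.37% in KT, 15.2 to 33.7% in KC, 15.01 to 19.97% in HT and 21.7 to 50.01% in HC. Of 12 melanoma and melanocyte markers, SOX10 averaged 797.5 CPM, MITF reached 141.2 CPM and PRAME 233.4 CPM, while the pigment genes MLANA and TYRP1 stayed under 1 CPM in every library. In HT and in KC against HC, edgeR called DCT and TFAP2A lower and the other 10 neither way. DCT (at most 5.39 CPM) had log2 fold changes of −2.16 ± 0.62 (SE, adjusted p = 0.0112) and −2.99 ± 0.65 (SE, adjusted p = 0.00937). TFAP2A had −0.39 ± 0.13 (SE, adjusted p = 0.0199) and −0.41 ± 0.13 (SE, adjusted p = 0.0385). Over all genes, 21.7% and 5.51% were called lower. The inhibitor effect on DCT was higher on the ketogenic diet by 4.05 ± 0.89 (SE, adjusted p = 0.0183). In 3 groups 1 library stood low. KT 1 was the lowest KT library in 45 of the 49 genes, KC 4 the lowest KC library in 47 and HC 4 the lowest HC library in 46, with median log2 distances of −0.83, −0.67 and −0.65 from the other 3 libraries of their groups. In HT no library stood so far below the rest, and HT 1 was lowest in 30 genes at a median distance of −0.17. In bulk RNA, fewer cells in S phase and less of these RNAs per cell cannot be told apart.

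The replication genes were lowest in HC. The mean level was lowest in HC for all 49 genes. It was highest in HT for 32, in KC for 14 and in KT for 3. Summed over the 49 genes, the level averaged 2689 ± 592 CPM in KT, 2702 ± 585 CPM in KC, 2974 ± 279 CPM in HT and 1343 ± 249 CPM in HC (SD, n = 4 each). The lowest library outside HC held 1823 CPM (KT 1), above the highest HC library at 1526 CPM.

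**Figure D1:**
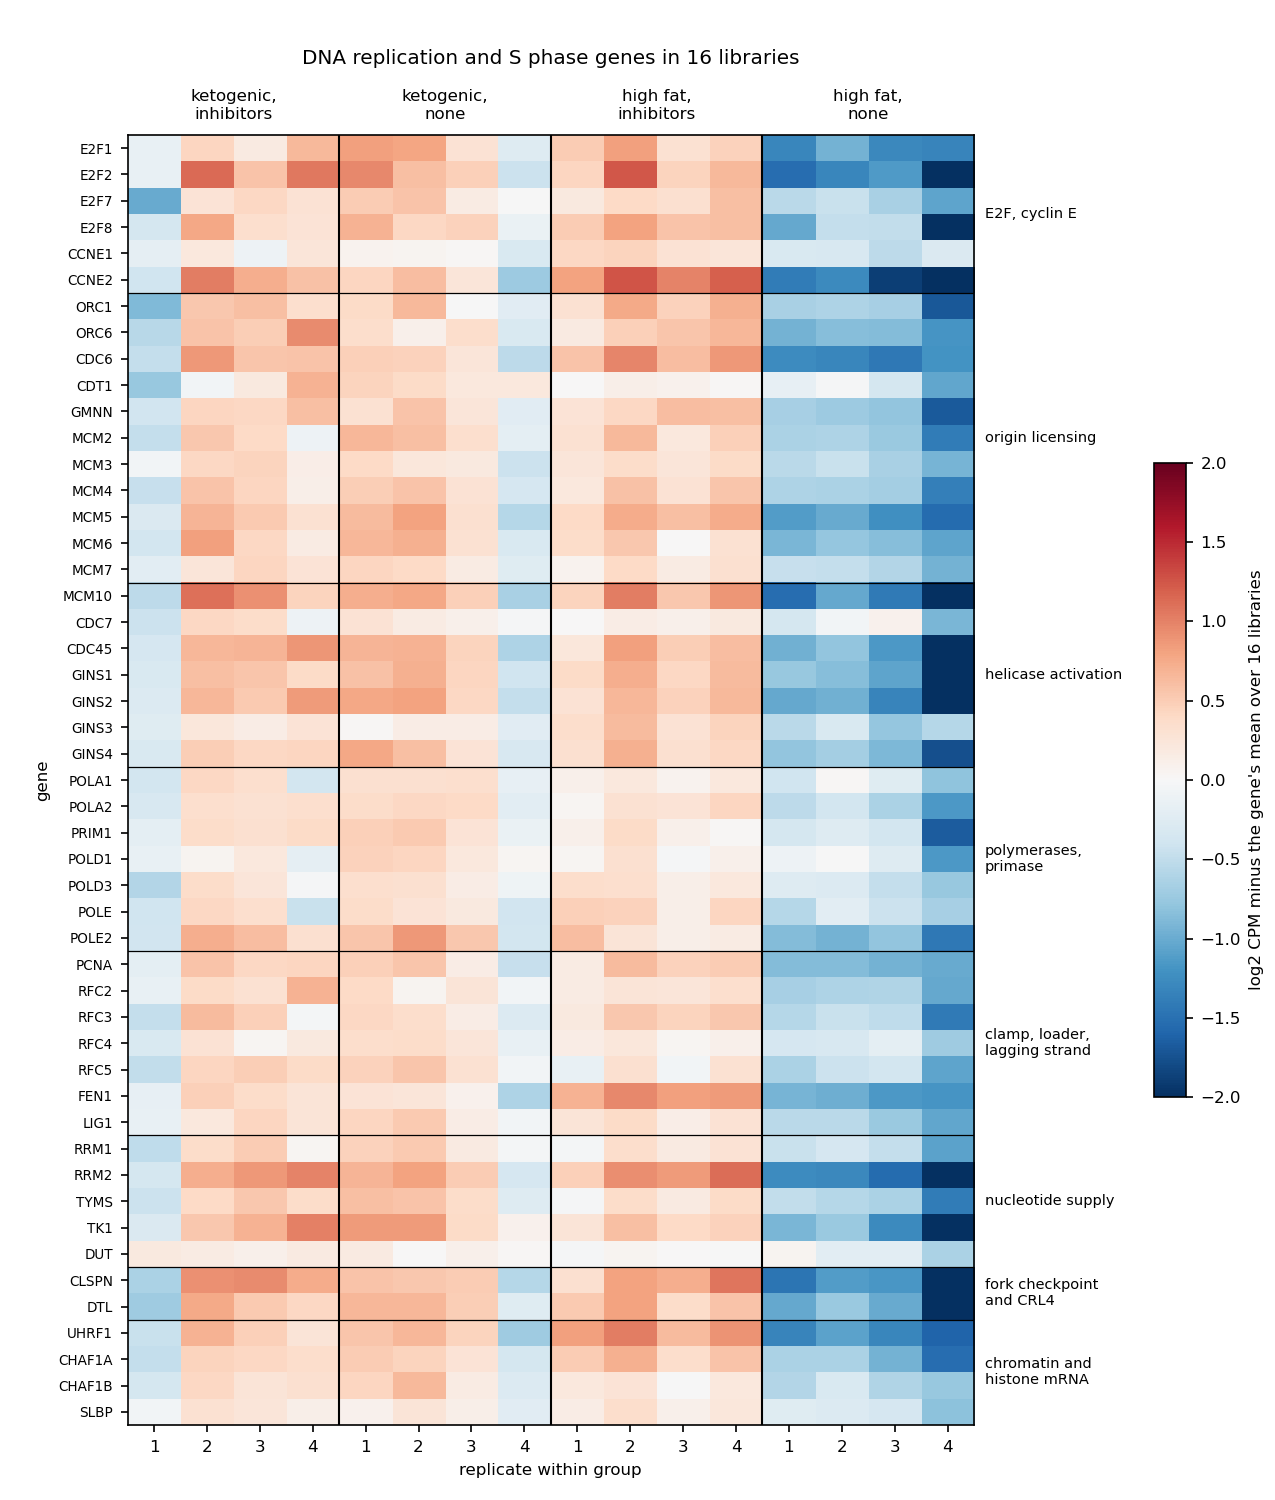
Level of each of the 49 genes (rows, by role) in each of the 16 libraries (columns, by group and replicate), as log2 CPM minus the gene's own mean over the 16 libraries, so colours compare libraries within a gene and not genes with each other. The HC columns are blue in nearly every row, and KT 1 and KC 4 are paler than the other libraries of their groups, being the lowest of their group in 45 and 47 genes.

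With inhibitors on the high fat diet, 44 of the 49 genes were higher in HT than in HC and 0 were lower, with adjusted p between 5.13e-06 and 0.0221. Over all genes tested, 20.6% were called higher and 21.7% lower in this comparison. The median log2 fold change of the 49 was 1.22, against −0.03 over all 16012 genes. Called genes were 1.42 to 6.56 times as high in HT, 28 of the 49 at least 2 times and 7 at least 4 times. In 46 genes every HT library was above every HC library, which held for 22.5% of all genes tested. The 5 genes not called were CDT1, CDC7, POLA1, POLD1 and DUT, and all 5 had a positive fold change.

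Without inhibitors, the ketogenic diet was set against the same HC libraries. Here 43 of the 49 genes were higher in KC than in HC and 0 were lower, with adjusted p between 0.00171 and 0.0364. The shares over all genes tested were 7.99% higher and 5.51% lower. The median log2 fold change was 1.09, against −0.02 over all genes. Of the 49, 27 were at least 2 times and 2 at least 4 times as high, and in 44 every KC library was above every HC library, against 13.3% of all genes tested. CCNE1, CDT1, CDC7, POLA1, POLE and DUT were not called. The 2 comparisons share the HC libraries: 42 genes were called in both, CCNE1 and POLE in HT against HC alone, POLD1 in KC against HC alone, and CDC7, CDT1, DUT and POLA1 in neither. Leaving out the 3 libraries with over 30% ribosomal RNA (KC 2, HC 2 and HC 3) left 46 genes called for HT over HC and 0 for KC over HC, where 0 of 16367 genes were then called by edgeR and 48 of the 49 had an unadjusted p under 0.05. The median of the 49 was then 1.35 for HT over HC and 1.12 for KC over HC. With the log2 ribosomal RNA share as a covariate, 44 and 43 were called. Over the 16 fits that left out 1 library each, the calls of 43 of the 44 genes higher in HT were kept, PRIM1 losing its call in some. The calls of 34 of the 43 genes higher in KC were kept in all 16, and E2F7, E2F8, ORC1, PRIM1, POLD1, POLD3, RFC3, RFC4 and SLBP lost theirs in at least 1. With HC 4 left out, 44 and 41 were called, with medians of 1.08 and 0.94.

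**Figure D2:**
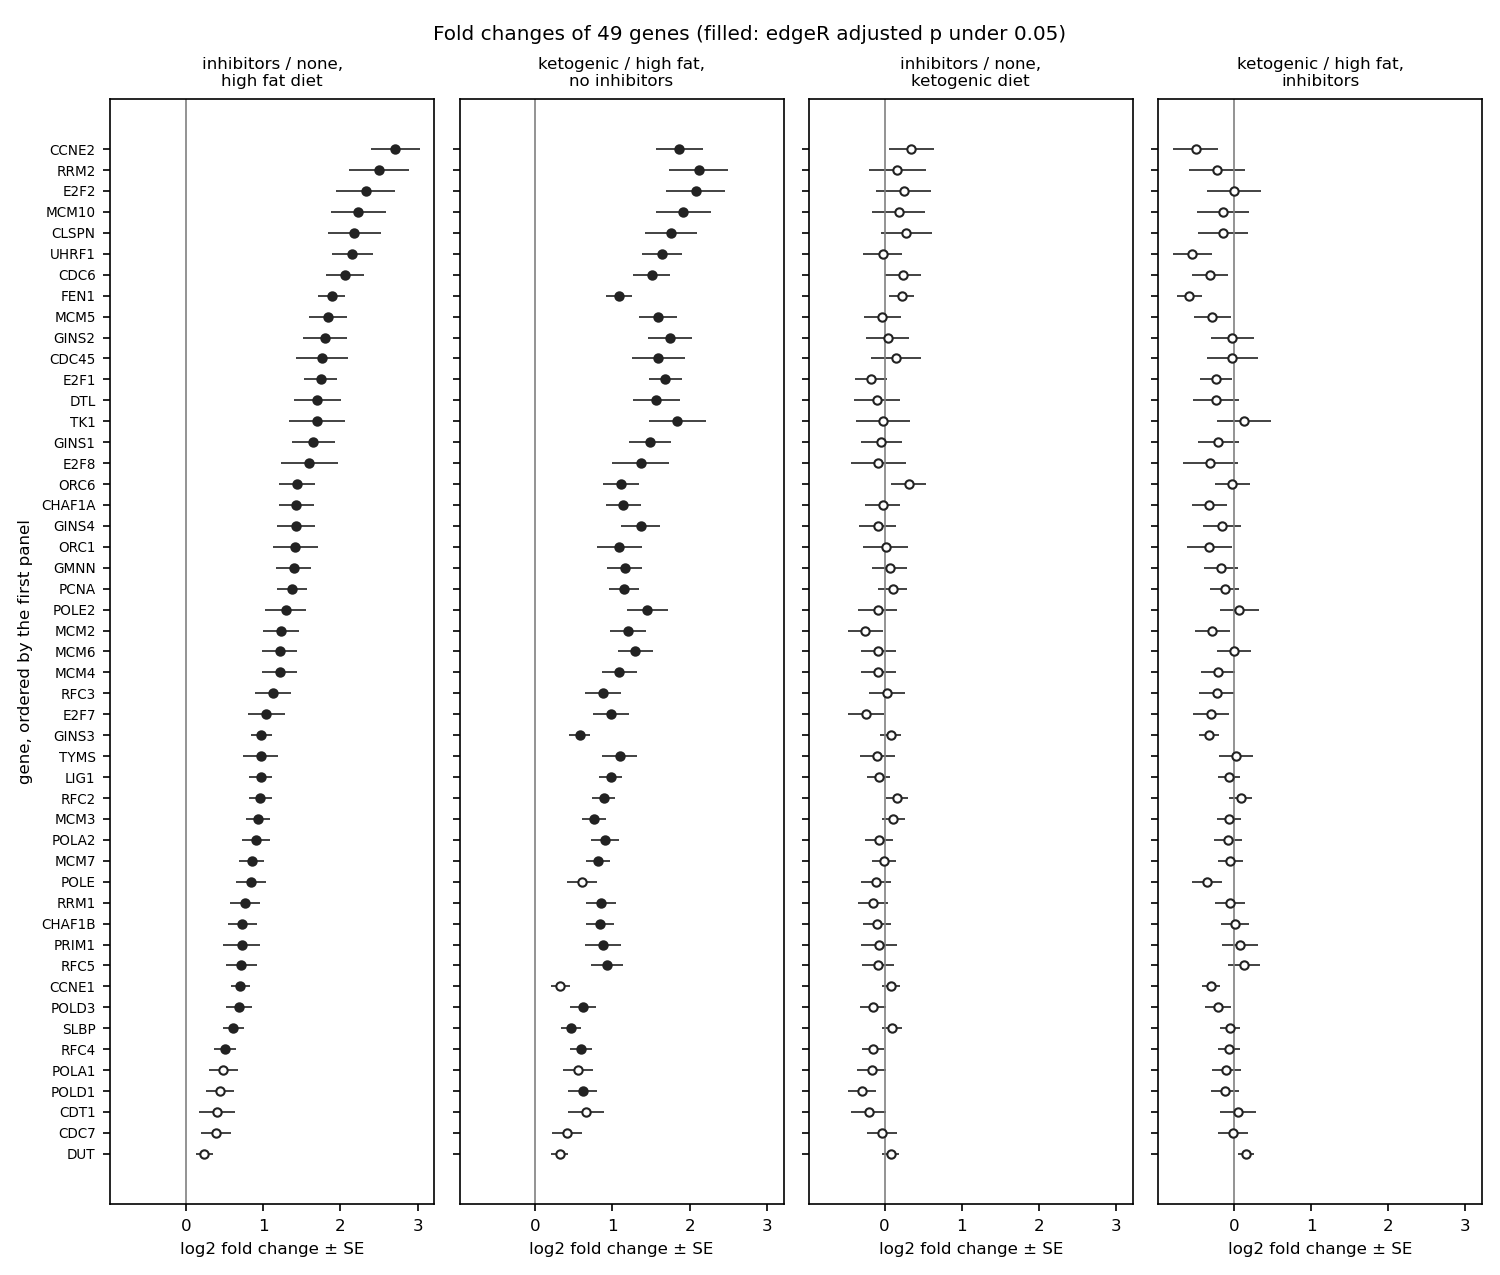
Log2 fold change with its SE (bars) for each of the 49 genes in 4 comparisons, 4 libraries a group, with genes ordered by the first panel and filled points for an adjusted p under 0.05. The panels of HT over HC and KC over HC run from 0.24 to 2.71 and from 0.31 to 2.12 and share the HC libraries, while the panels of KT over KC and KT over HT lie between −0.58 and 0.35.

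Among the E2F factors and cyclins E, all 6 were higher in HT than in HC and 5 of 6 higher in KC than in HC. E2F1, an activator of S phase genes, stood at 23.7, 35.4, 29.8 and 41.3 CPM in KT, 46.6, 45.6, 32.2 and 22.1 CPM in KC and 37.4, 46.6, 32.5 and 36.2 CPM in HT, against 10.7, 13.6, 10.8 and 10.52 CPM in HC. Every HC library was below every other library, and KT, KC and HT overlapped. The log2 fold change of E2F1 was 1.74 ± 0.22 (SE, adjusted p = 4.86e-05) for HT over HC and 1.69 ± 0.22 (SE, adjusted p = 0.00171) for KC over HC. CCNE2, cyclin E2, an activating subunit of CDK2, had the highest fold change of the 49 genes for HT over HC. It stood at 8.09, 21.7, 17.6 and 15.99 CPM in KT, 14.3, 16.3, 12.5 and 6.43 CPM in KC and 18.6, 25.4, 21.1 and 24.3 CPM in HT, against 4.01, 4.42, 2.87 and 2.31 CPM in HC. All HT libraries were above all HC libraries and KT 1 and KC 4, the lowest of their groups, were still above HC. Its log2 fold change was 2.71 ± 0.31 (SE, adjusted p = 3.41e-05) for HT over HC and 1.87 ± 0.31 (SE, adjusted p = 0.00296) for KC over HC. CCNE1, its paralog, stood at 11.9, 15.6, 12.5 and 15.9 CPM in KT, 14.1, 13.9, 13.7 and 10.9 CPM in KC and 17.9, 18.2, 16.4 and 15.9 CPM in HT, against 10.9, 10.8, 9.33 and 10.99 CPM in HC. The HT libraries were above all HC libraries, while KC and HC overlapped, with a log2 fold change of 0.70 ± 0.12 (SE, adjusted p = 0.000366) for HT over HC and 0.32 ± 0.12 (SE, adjusted p = 0.0815) for KC over HC. E2F7, a repressor of the same targets, stood at 10.7, 26.2, 28.6 and 26.2 CPM in KT, 30.6, 32.03, 24.1 and 21.3 CPM in KC and 24.6, 28.3, 26.9 and 32.7 CPM in HT, against 14.8, 15.8, 13.8 and 10.3 CPM in HC. HT and KC lay above HC without overlap, and KT 1 fell inside the HC range. Its log2 fold change was 1.04 ± 0.24 (SE, adjusted p = 0.00272) for HT over HC and 0.98 ± 0.24 (SE, adjusted p = 0.0145) for KC over HC.

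Origin licensing genes rose in both comparisons in 10 of 11 cases, CDT1 being the exception. CDC6, which helps the origin recognition complex to load the helicase, stood at 27.04, 68.7, 55.2 and 55.8 CPM in KT, 52.7, 51.9, 44.4 and 26.3 CPM in KC and 56.3, 73.8, 57.6 and 68.6 CPM in HT, against 15.8, 15.3, 13.97 and 16.5 CPM in HC. The HC libraries lay close to each other and far below all others. For CDC6 the log2 fold change was 2.06 ± 0.24 (SE, adjusted p = 3.92e-05) for HT over HC and 1.51 ± 0.24 (SE, adjusted p = 0.00259) for KC over HC. MCM5, a subunit of the helicase ring, stood at 34.4, 67.3, 60.5 and 52.1 CPM in KT, 64.7, 73.1, 52.2 and 28.2 CPM in KC and 55.1, 70.4, 63.5 and 70.5 CPM in HT, against 19.4, 20.8, 18.02 and 14.5 CPM in HC. No library outside HC came as low as the highest HC library. Its fold change was 1.84 ± 0.25 (SE, adjusted p = 7.95e-05) in HT over HC and 1.59 ± 0.25 (SE, adjusted p = 0.00242) in KC over HC, on the log2 scale. The other ring subunits MCM2, MCM3, MCM4, MCM6 and MCM7 were called in both comparisons, and MCM2 stood at 73.8, 149, 135 and 95.3 CPM in KT, 162, 156, 129 and 90.00 CPM in KC and 126, 162, 118 and 143 CPM in HT, against 66.5, 67.2, 61.1 and 38.98 CPM in HC. For MCM2 the log2 fold change was 1.23 ± 0.23 (SE, adjusted p = 0.000721) for HT over HC and 1.20 ± 0.23 (SE, adjusted p = 0.00558) for KC over HC. CDT1, the loading partner of CDC6, is destroyed by ubiquitination in S phase and held by geminin. It stood at 20.5, 33.5, 39.6 and 56.4 CPM in KT, 47.1, 45.3, 40.3 and 40.4 CPM in KC and 34.8, 37.5, 36.9 and 35.4 CPM in HT, against 31.1, 34.2, 27.3 and 16.99 CPM in HC. Its HT and HC libraries did not overlap, but the differences were small and it was not called, with a log2 fold change of 0.40 ± 0.23 (SE, adjusted p = 0.178) for HT over HC and 0.66 ± 0.23 (SE, adjusted p = 0.0697) for KC over HC. GMNN, geminin itself, was called in both, with 1.39 ± 0.23 (SE, adjusted p = 0.000277) for HT over HC and 1.16 ± 0.23 (SE, adjusted p = 0.00588) for KC over HC on the log2 scale. ORC1, the ATPase of the origin recognition complex, had log2 fold changes of 1.42 ± 0.29 (SE, adjusted p = 0.00155) for HT over HC and 1.09 ± 0.29 (SE, adjusted p = 0.0239) for KC over HC.

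**Figure D3:**
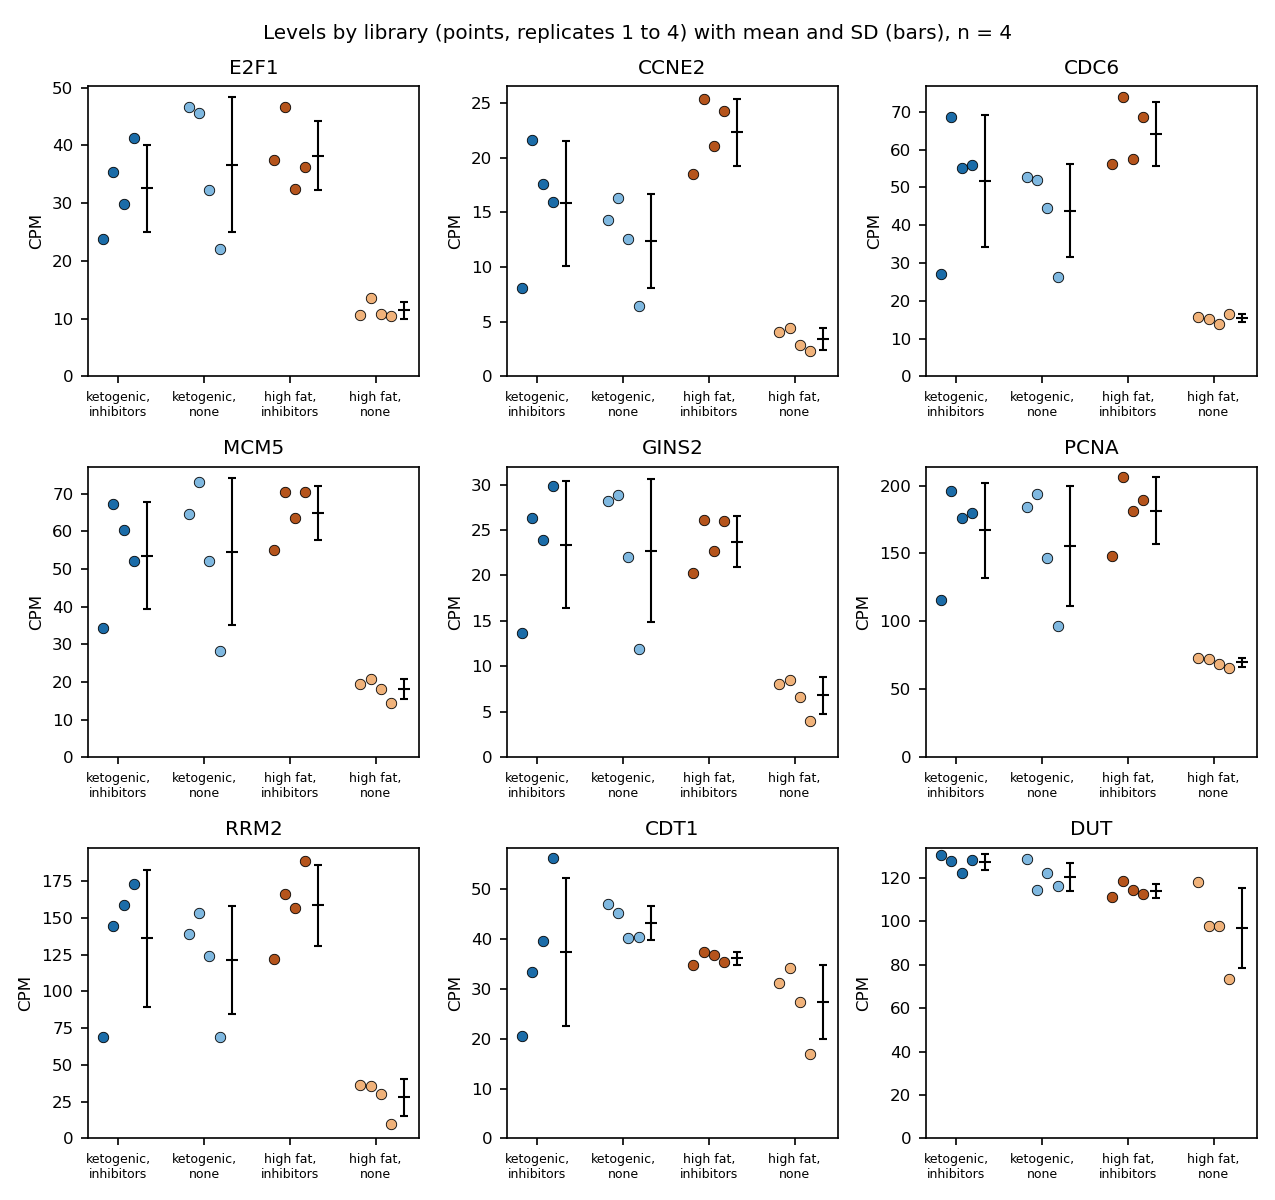
CPM in each library (points, replicates 1 to 4 from left to right) for 9 genes in the 4 groups, with the group mean and SD beside them (n = 4 each). HC is the lowest group throughout, without overlap for E2F1, CCNE2, CDC6, MCM5, GINS2, PCNA and RRM2, while CDT1 and DUT overlap in part and were not called.

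Of the 7 genes that turn the loaded helicase on, 6 were higher in both comparisons. MCM10, needed for the helicase to leave the origin, stood at 9.77, 30.3, 26.6 and 19.2 CPM in KT, 23.2, 23.9, 19.4 and 8.97 CPM in KC and 19.1, 28.7, 20.5 and 25.95 CPM in HT, against 4.88, 6.91, 5.26 and 3.03 CPM in HC. HC held the 4 lowest libraries. The log2 fold change was 2.23 ± 0.36 (SE, adjusted p = 0.000285) for HT over HC and 1.92 ± 0.36 (SE, adjusted p = 0.00529) for KC over HC. GINS2, a subunit of the GINS complex that joins the helicase, stood at 13.6, 26.3, 23.9 and 29.8 CPM in KT, 28.2, 28.9, 22.01 and 11.9 CPM in KC and 20.2, 26.04, 22.6 and 26.00 CPM in HT, against 8.09, 8.49, 6.60 and 4.04 CPM in HC. HC 4 was the lowest library and the other HC libraries also stayed below all others. GINS2 had 1.80 ± 0.29 (SE, adjusted p = 0.000249) for HT over HC and 1.74 ± 0.29 (SE, adjusted p = 0.00304) for KC over HC on the log2 scale. CDC45, the third part of the active helicase, had log2 fold changes of 1.76 ± 0.34 (SE, adjusted p = 0.000971) for HT over HC and 1.60 ± 0.34 (SE, adjusted p = 0.00874) for KC over HC. CDC7, the kinase that acts on loaded MCM, was the exception. It stood at 9.97, 17.8, 17.2 and 12.5 CPM in KT, 16.4, 14.95, 14.3 and 13.2 CPM in KC and 13.4, 14.8, 14.4 and 15.3 CPM in HT, against 10.4, 12.8, 14.1 and 7.09 CPM in HC. Both the HT and the KC range overlapped that of HC. The log2 fold change of CDC7 was 0.38 ± 0.20 (SE, adjusted p = 0.123) for HT over HC and 0.41 ± 0.20 (SE, adjusted p = 0.17) for KC over HC.

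The polymerases and primase had the lowest median fold change of any role in both comparisons, with 5 of 7 genes called in each and a median log2 value of 0.72 for HT over HC and 0.62 for KC over HC. POLE2, an accessory subunit of the leading strand polymerase epsilon, had the highest fold change of them. It stood at 4.11, 8.90, 8.21 and 6.67 CPM in KT, 7.86, 9.83, 7.75 and 4.15 CPM in KC and 8.26, 6.41, 5.83 and 6.02 CPM in HT, against 2.95, 2.77, 3.11 and 1.99 CPM in HC. HC was below all other libraries, with a log2 fold change of 1.29 ± 0.26 (SE, adjusted p = 0.00119) for HT over HC and 1.45 ± 0.26 (SE, adjusted p = 0.00432) for KC over HC. POLA1, the catalytic subunit of the polymerase that extends primers, stood at 33.8, 58.1, 54.7 and 33.7 CPM in KT, 54.3, 54.3, 55.03 and 38.6 CPM in KC and 46.4, 50.1, 45.8 and 50.5 CPM in HT, against 32.8, 44.01, 36.6 and 24.8 CPM in HC. HT was above HC without overlap and KC overlapped HC, and neither difference was called, with log2 fold changes of 0.48 ± 0.19 (SE, adjusted p = 0.0514) for HT over HC and 0.55 ± 0.19 (SE, adjusted p = 0.0639) for KC over HC. POLD3, a subunit of polymerase delta, had log2 fold changes of 0.68 ± 0.17 (SE, adjusted p = 0.00447) for HT over HC and 0.62 ± 0.17 (SE, adjusted p = 0.0243) for KC over HC. All 7 genes of the clamp, its loader and the lagging strand were called in both comparisons. PCNA, the sliding clamp, stood at 116, 196, 176 and 179.6 CPM in KT, 184, 194, 147 and 96.5 CPM in KC and 148, 207, 182 and 189 CPM in HT, against 72.95, 72.5, 68.9 and 65.8 CPM in HC. The HC libraries lay close to each other and below KC 4, the lowest of the rest. Its log2 fold change was 1.37 ± 0.19 (SE, adjusted p = 8.35e-05) for HT over HC and 1.15 ± 0.19 (SE, adjusted p = 0.00285) for KC over HC. LIG1, the ligase that seals the lagging strand, had log2 fold changes of 0.97 ± 0.15 (SE, adjusted p = 0.000164) for HT over HC and 0.98 ± 0.15 (SE, adjusted p = 0.00235) for KC over HC. RFC3, a subunit of the clamp loader, had log2 fold changes of 1.12 ± 0.23 (SE, adjusted p = 0.00157) for HT over HC and 0.87 ± 0.23 (SE, adjusted p = 0.0233) for KC over HC.

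Of the 5 genes of nucleotide supply, 4 were called in both comparisons. RRM2, the small subunit of ribonucleotide reductase, stood at 68.7, 144, 159 and 173 CPM in KT, 139, 153, 124 and 69.2 CPM in KC and 122, 167, 157 and 189 CPM in HT, against 36.6, 35.8, 30.2 and 9.64 CPM in HC. HC 4 was far below the other HC libraries, which were themselves below all others. The log2 fold change was 2.50 ± 0.39 (SE, adjusted p = 0.000271) for HT over HC and 2.12 ± 0.38 (SE, adjusted p = 0.00524) for KC over HC. RRM1, the large subunit, had log2 fold changes of 0.76 ± 0.20 (SE, adjusted p = 0.00605) for HT over HC and 0.85 ± 0.20 (SE, adjusted p = 0.0118) for KC over HC. TK1, the thymidine kinase of dividing cells, stood at 33.5, 59.8, 66.5 and 82.5 CPM in KT, 73.7, 74.2, 53.7 and 43.7 CPM in KC and 48.9, 61.9, 54.2 and 56.3 CPM in HT, against 21.6, 24.5, 16.97 and 5.41 CPM in HC. HC again held the 4 lowest libraries, with a log2 fold change of 1.69 ± 0.36 (SE, adjusted p = 0.00226) for HT over HC and 1.84 ± 0.37 (SE, adjusted p = 0.00709) for KC over HC. TYMS, which makes thymidylate, had log2 fold changes of 0.97 ± 0.23 (SE, adjusted p = 0.00337) for HT over HC and 1.09 ± 0.23 (SE, adjusted p = 0.00787) for KC over HC. DUT, which breaks down dUTP, stood at 131, 128, 122 and 128 CPM in KT, 129, 114, 122 and 116 CPM in KC and 111, 119, 114 and 112 CPM in HT, against 118, 98.04, 97.99 and 73.3 CPM in HC. HC 1 lay inside the range of HT and KC, and neither difference was called, with log2 fold changes of 0.24 ± 0.11 (SE, adjusted p = 0.0839) for HT over HC and 0.31 ± 0.11 (SE, adjusted p = 0.0607) for KC over HC.

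Both fork and ubiquitination genes and all 4 chromatin and histone genes were called in both comparisons. CLSPN, claspin, which passes the checkpoint signal to CHK1, stood at 11.03, 32.3, 32.9 and 28.6 CPM in KT, 25.5, 24.7, 24.3 and 11.5 CPM in KC and 21.3, 29.9, 28.1 and 35.9 CPM in HT, against 6.23, 7.90, 7.63 and 3.73 CPM in HC. HC held the 4 lowest libraries, and KT 1 and KC 4 lay between them and the rest. Claspin had a log2 fold change of 2.18 ± 0.34 (SE, adjusted p = 0.000255) for HT over HC and 1.76 ± 0.34 (SE, adjusted p = 0.00598) for KC over HC. DTL, the CRL4 adaptor that marks CDT1 for destruction, had log2 fold changes of 1.70 ± 0.31 (SE, adjusted p = 0.000645) for HT over HC and 1.57 ± 0.30 (SE, adjusted p = 0.0062) for KC over HC. UHRF1, which brings DNMT1 to newly copied DNA, stood at 27.7, 61.5, 52.8 and 45.5 CPM in KT, 55.5, 59.7, 51.8 and 23.3 CPM in KC and 66.6, 76.6, 58.6 and 70.3 CPM in HT, against 15.2, 18.1, 15.3 and 12.5 CPM in HC. All libraries of the other groups were above HC. UHRF1 had a log2 fold change of 2.16 ± 0.26 (SE, adjusted p = 5.29e-05) for HT over HC and 1.64 ± 0.26 (SE, adjusted p = 0.00259) for KC over HC. CHAF1A, the large subunit of chromatin assembly factor 1, had log2 fold changes of 1.43 ± 0.23 (SE, adjusted p = 0.000236) for HT over HC and 1.14 ± 0.23 (SE, adjusted p = 0.00624) for KC over HC. SLBP, which binds the stem-loop of histone mRNA, had log2 fold changes of 0.61 ± 0.13 (SE, adjusted p = 0.00164) for HT over HC and 0.47 ± 0.13 (SE, adjusted p = 0.0271) for KC over HC.

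On the ketogenic diet no difference with inhibitors passed the test. Of the 49 genes, 0 were called higher or lower in KT against KC, and 0 had an unadjusted p under 0.05. DESeq2 and limma voom also called 0. Over all genes tested, 0.856% were called higher and 0.887% lower. The 49 log2 fold changes ran from −0.30 to 0.35 with a median of −0.03, and KT and KC libraries overlapped in all 49. The extremes were CCNE2 at 0.35 ± 0.29 (SE, adjusted p = 0.55), ORC6 at 0.31 ± 0.23 (SE, adjusted p = 0.491) and CLSPN at 0.28 ± 0.33 (SE, adjusted p = 0.681), and at the other end POLD1 at −0.30 ± 0.18 (SE, adjusted p = 0.404), MCM2 at −0.25 ± 0.23 (SE, adjusted p = 0.594) and E2F7 at −0.24 ± 0.23 (SE, adjusted p = 0.625). The ends of the 49 genes' own 95% intervals lay between −0.78 and 0.95. The median was 0.12 without KT 1 and −0.18 without KC 4, with 0 calls in each. It was 0.41 with the log2 ribosomal RNA share as a covariate, where 46 of the 49 fold changes were positive, against 20 without it, and 0 were called. With library size alone it was 0.27, close to the 0.28 over all genes tested, with 48 positive and 0 called.

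Between the diets with inhibitors, 0 of the 49 genes were called in KT against HT, while 4 were lower at an unadjusted p under 0.05. Over all genes tested, 0.05% were called higher and 0.119% lower. DESeq2 called 0 and limma voom with quality weights called 1 lower. The log2 fold changes ran from −0.58 to 0.16 with a median of −0.12 and 95% intervals from −1.06 to 0.82. FEN1, the nuclease that trims Okazaki flaps, stood at 90.4, 141, 131 and 122 CPM in KT, 122, 121, 107 and 65.9 CPM in KC and 164, 197, 179.6 and 183 CPM in HT, against 53.5, 51.6, 45.6 and 44.8 CPM in HC. Every KT library was below every HT library, and all were above HC. The log2 fold change of KT over HT was −0.58 ± 0.17 (SE, adjusted p = 0.156) for FEN1, −0.54 ± 0.25 (SE, adjusted p = 0.393) for UHRF1 and −0.50 ± 0.29 (SE, adjusted p = 0.497) for CCNE2. At the other end stood DUT at 0.16 ± 0.11 (SE, adjusted p = 0.57), TK1 at 0.13 ± 0.35 (SE, adjusted p = 0.913) and RFC5, a clamp loader subunit, at 0.13 ± 0.20 (SE, adjusted p = 0.833). The median was 0.02 without KT 1, with 0 calls. With the ribosomal RNA covariate it was 0.19, with 39 of the 49 positive, against 11 without it, and 0 called.

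The inhibitor effect itself was compared between diets as the effect on the ketogenic diet minus that on the high fat diet. It was lower for 38 of the 49 genes and higher for 0, with a median of −1.28, against 0.03 over all genes tested. Over all genes tested, 4.36% were called higher and 4.66% lower. This quantity uses the HC libraries too, so it is not independent of the comparisons above. CCNE2 had the lowest value at −2.36 ± 0.42 (SE, adjusted p = 0.00814), followed by RRM2 at −2.33 ± 0.53 (SE, adjusted p = 0.0206) and UHRF1 at −2.18 ± 0.36 (SE, adjusted p = 0.00761). E2F1 stood at −1.91 ± 0.30 (SE, adjusted p = 0.00585), CDC6 at −1.82 ± 0.33 (SE, adjusted p = 0.00921), MCM5 at −1.87 ± 0.34 (SE, adjusted p = 0.00921) and PCNA at −1.27 ± 0.27 (SE, adjusted p = 0.0143). Those nearest 0 were DUT at −0.16 ± 0.15 (SE, adjusted p = 0.522), CDC7 at −0.42 ± 0.28 (SE, adjusted p = 0.337) and SLBP at −0.52 ± 0.18 (SE, adjusted p = 0.0804), none of them called. The number of calls depended on single libraries. It was 25 without KT 1, 15 without KC 1, 14 without KC 2, 24 without KC 3, 18 without HT 2, 24 without HT 3, 20 without HT 4, 25 without HC 1 and 22 without HC 3, and 43 without KC 4. The calls of 14 genes held in each of the 16 fits that left out 1 library. Over all genes tested, 1444 were called in the main fit, 407 without KC 2 and 2636 without KT 4. Ribosomal RNA moved with the groups. With its log2 share as a covariate, 1 of the 49 was called, with a median of −1.02, and 30 of all 16012 genes tested. Without the 3 libraries over 30%, 0 of the 49 and 0 of all 16367 genes tested were called by edgeR. Of the 49, 47 then had an unadjusted p under 0.05, with a median of −1.27.

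Other genes of the same processes were read from lists chosen with earlier results known. Of 54 further replication and S phase genes, 34 were higher and 3 lower in HT than in HC, with a median log2 fold change of 0.64. In KC against HC 30 were higher and 0 lower, with a median of 0.60. The shares of all genes tested were 20.6% higher and 21.7% lower in HT, and 7.99% higher and 5.51% lower in KC. The 3 that were lower in HT were E2F5, an E2F factor of the repressor type, RRM2B, the p53-induced subunit of ribonucleotide reductase, and ORC3, and E2F5 stood at 8.95, 6.11, 7.40 and 7.22 CPM in KT, 5.65, 6.93, 8.16 and 10.1 CPM in KC and 4.73, 4.92, 4.68 and 4.21 CPM in HT, against 10.3, 10.6, 11.1 and 10.9 CPM in HC. Every HT library lay below every HC library for E2F5, with a log2 fold change of −1.21 ± 0.16 (SE, adjusted p = 6.95e-05). In KT against KC 1 of the 54 was called, E2F4, higher at 0.53 ± 0.12 (SE, adjusted p = 0.0334), and in KT against HT 0 were, with 1 higher and 1 lower at an unadjusted p under 0.05 in edgeR. The difference of effects was called lower for 18 and higher for 1, E2F5. Among all genes tested, 0.856% were called higher and 0.887% lower in KT against KC. In KT against HT the shares were 0.05% and 0.119%. For the difference of effects they were 4.36% higher and 4.66% lower.

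Of 20 genes of G2 and mitosis, 8 were called higher and 0 lower in HT against HC, and 6 and 0 in KC against HC. All 20 fold changes were positive in both comparisons, with medians of 0.87 and 1.01 on the log2 scale. Their median SE was 0.40 for HT over HC, against 0.17 for the 54 further replication genes. By edgeR, KT against KC and KT against HT gave 0 calls and 0 genes with an unadjusted p under 0.05, and the difference of effects gave 0 calls with 10 genes lower at that unadjusted p. CDK1, the kinase that drives entry into mitosis, stood at 53.2, 92.5, 116 and 78.6 CPM in KT, 112, 109, 92.6 and 80.6 CPM in KC and 78.2, 92.3, 119 and 112 CPM in HT, against 50.2, 56.8, 48.7 and 15.1 CPM in HC. HC 4 stood far below the other HC libraries, which themselves were below HT and KC. Its log2 fold change was 1.23 ± 0.32 (SE, adjusted p = 0.00713) for HT over HC and 1.21 ± 0.32 (SE, adjusted p = 0.024) for KC over HC. Summed over the 20 genes, HC 4 held 271.2 CPM, while the other HC libraries held 1487 to 1696 CPM. HT held 2059 to 2585 CPM and KC 2203 to 2846 CPM. Single genes were not all as separate as CDK1. TOP2A, a topoisomerase, stood at 261 to 297 CPM in HC 1 to HC 3, inside or near the HT range of 268 to 328, and at 372 to 423 in KC. How much of the medians of the 20 genes rests on HC 4 was not tested. The 49 replication genes summed to 981 CPM in HC 4. Of 14 genes that report MAPK signalling, 3 were higher and 3 lower in HT than in HC, and 1 was higher in KC than in HC. These shares are near those over all genes tested, which were 20.6% higher and 21.7% lower for HT over HC and 7.99% higher for KC over HC. The 3 higher in HT included DUSP6, a phosphatase of ERK, at 0.68 ± 0.22 (SE, adjusted p = 0.0196), and the 3 lower included SPRY4, a feedback inhibitor, at −0.63 ± 0.18 (SE, adjusted p = 0.00933). For DUSP6, HC 4 stood at 485.4 CPM, inside the HT range of 448.4 to 510.1, while the other HC libraries held 211.9 to 248.7. For SPRY4, HC 4 stood at 631.2 CPM, the other HC libraries at 406.8 to 467.9 and HT at 281.4 to 385.5. KT against KC and KT against HT gave 0 calls in this list by edgeR, each with 1 gene higher and 2 lower at an unadjusted p under 0.05.

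**Figure D4:**
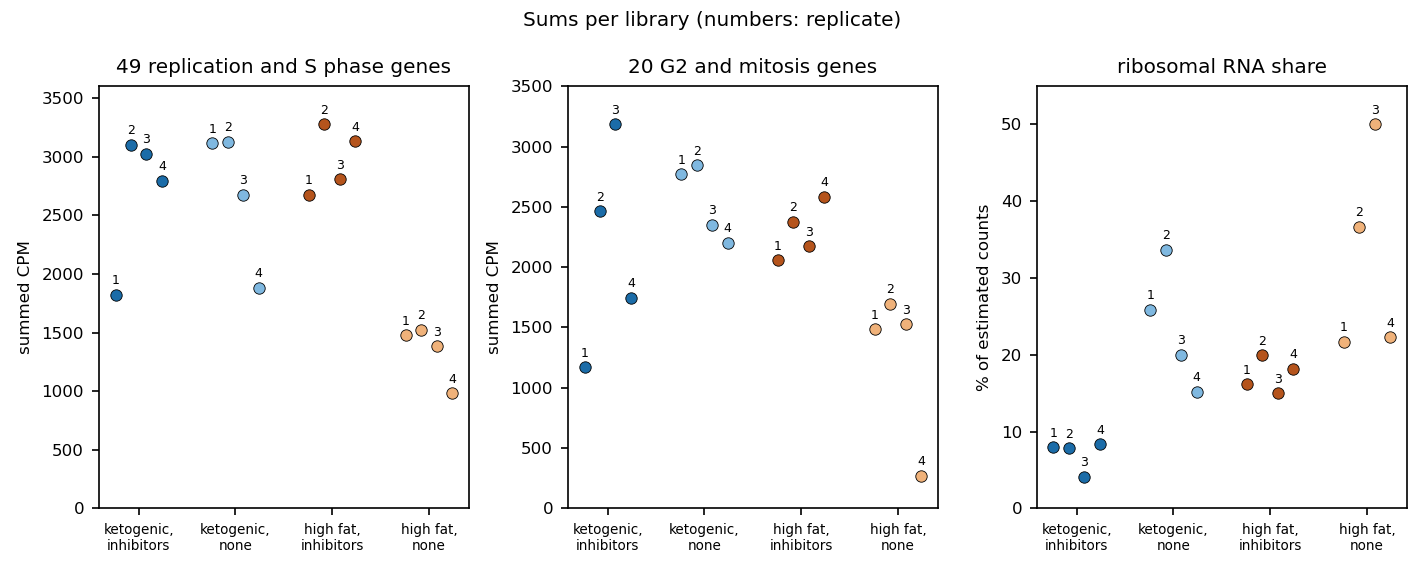
Sums for each library (points, numbered by replicate): CPM of the 49 replication and S phase genes, CPM of 20 G2 and mitosis genes, and ribosomal RNA as a percentage of estimated counts. The 4 HC libraries hold the lowest sums of the 49 genes (981 to 1526 CPM), HC 4 is lowest for the mitosis genes at 271.2 CPM, and ribosomal RNA reaches 50.01% in HC 3.

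Markers of other cells were mostly near 0, and some moved with the groups. Of 11 leukocyte markers 9 stayed under 1 CPM in every library and MS4A1 was at 0 throughout. Their sum was 4.63 to 7.92 CPM in KT, 4.46 to 8.46 in KC, 6.72 to 8.63 in HT and 0.875 to 1.95 in HC, mostly CORO1A, while PTPRC, the common leukocyte marker, reached at most 0.691 CPM. Of 9 endothelial markers 6 stayed under 1 CPM, and the sum, mostly KDR, was 29.4 to 49.7 CPM in KT, 27.9 to 38.9 in KC, 73.2 to 83.4 in HT and 17.9 to 37.9 in HC. Of 9 erythroid and plasma genes 5 stayed under 1 CPM in every library. Their sum, mostly TTR and SERPINA1, was 23.2 to 84.2 CPM in KT, 12.5 to 17.2 in KC, 35.2 to 70.9 in HT and 6.61 to 8.30 in HC. The 9 fibroblast markers summed to 44.3 to 70.6 CPM in KT, 51.2 to 81.5 in KC, 43.3 to 70.1 in HT and 71.3 to 98.4 in HC. Sums of the next 3 lists overlapped between HC and each other group. The 10 macrophage and neutrophil markers, mostly CD68, summed to 50.1 to 80.8 CPM in KT, 54.3 to 89.3 in KC, 49.6 to 65.5 in HT and 61.2 to 78.97 in HC. The 11 lung epithelium markers, mostly KRT18 and with 8 under 1 CPM in every library, summed to 101.4 to 179.9 CPM in KT, 114 to 131.6 in KC, 132.1 to 141.3 in HT and 113.2 to 158.4 in HC. The 7 adipocyte markers, mostly LPL and with 6 under 1 CPM, summed to 90.2 to 134.9 CPM in KT, 132.5 to 239.7 in KC, 138.7 to 151.3 in HT and 79.02 to 162.8 in HC. Each of these sums is mostly 1 gene, and single markers moved within them. LYZ, a lysozyme of macrophages and neutrophils, stood at 1.41 to 4.76 CPM in KT, 2.49 to 4.74 in KC and 3.48 to 3.92 in HT, against 0.325 to 0.875 in HC. It was called higher by edgeR in HT over HC, with a log2 fold change of 2.74 ± 0.36 (SE, adjusted p = 6.51e-05), and in KC over HC, with 2.69 ± 0.36 (SE, adjusted p = 0.00171), and lower in the difference of effects. CORO1A and SERPINA1 were likewise called higher in both comparisons with HC. PDGFRB, a fibroblast marker, AGER, a marker of alveolar epithelium, and PLIN1, an adipocyte marker, were called lower in both. Other markers of these lists went other ways. LCP1, a leukocyte marker, was called higher in HT over HC at 2.01, but had −0.47 in KC over HC, not called. In HT over HC, CD68 was called lower at −0.64 and COL3A1, a fibroblast marker, higher at 2.08. Neither was called in KC over HC. Of all genes tested, 20.6% were called higher and 21.7% lower in HT over HC, and 7.99% and 5.51% in KC over HC. The part of these cells in the replication gene results was not tested.

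Counting could blur some of these genes. In GENCODE 29, 17 of the 49 share exon bases with a gene on the other strand, and for 8 of them the partner is in the table: CCNE2, FEN1, GINS2, MCM2, MCM7, PRIM1, RFC4 and TYMS. Whether counting used the strand is not given in the sources used here. Reads within the exon bases that these 8 share with their partners may therefore be assigned to either gene. How large a part of each gene's count that is was not tested.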

How the data were processed

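The deposited table holds RSEM expected counts (estimated counts) per gene symbol in 16 libraries, not scaled for depth, and were made by the authors with hg38 as build, RSEM 1.2.15 and Bowtie2 2.1.0 as tools, per the submitters' processing notes. Annotation, strandedness and handling of mouse reads: not given in the sources used here. Since 13.0% of the deposited values were not whole, all were rounded before the tests. No columns were left out.

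Genes were filtered with edgeR's filterByExpr, scaled with TMM and fitted with edgeR 4.0.16 (R 4.3.3) by robust quasi-likelihood, in a single model with a mean for each of the 4 groups of 16 libraries. Of 26475 symbols 16012 were tested, in 5 comparisons: HT against HC, KT against KC, KC against HC, KT against HT, and the ketogenic inhibitor effect minus the high fat one. P-values were two-sided and adjusted by Benjamini-Hochberg over all genes tested, and called under 0.05 without a minimum fold. The scripts were tested on simulated data. Non-ribosomal counts were 32.2 to 51.2 M (mega) a library, and the lowest count of any of the 49 genes in a library was 31.

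The 49 genes and the 3 pathway and 8 marker lists were chosen with earlier results of these data known. Every member could be named; those given full statistics were 29 picked for their role, and in each comparison the 3 highest and the 3 lowest. Samples with the same replicate number correlated between −0.15 and 0.38 and were not taken as pairs. No library was a copy of another: chi-square per degree of freedom between replicates was at least 35.4. Alternatives were DESeq2 1.42.0, limma voom 3.58.1 with quality weights, other scaling and filters, a ribosomal RNA covariate, the replicate block, a 1.5-fold minimum, and fits without single libraries. Promoters came from RefSeq (GRCh38.p14) and gene overlaps from GENCODE 29.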

Additional observations from a re-analysis of the deposited data

Results flagged for a closer look

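In each group of 4 libraries, the gap between the highest or the lowest library and its nearest neighbour was set against the whole range of the group with Dixon's 95% critical value. Of 208 groups tested, 19 had such a library, and chance alone gives about 1 in 20 for independent groups. These groups share the same 16 libraries, and 1 low library can flag many genes. The count therefore cannot be tested against that rate. Libraries that stood low within their group were mostly the same ones. In HC 4 these were ORC1 at 5.02 CPM, GMNN at 7.68 CPM, MCM4 at 45.5 CPM, PRIM1 at 6.91 CPM and RFC3 at 21.1 CPM, together with the sum of 20 G2 and mitosis genes at 271.2 CPM. In KC 4 they were CCNE1 at 10.9 CPM, POLA1 at 38.6 CPM, POLA2 at 28.6 CPM and CLSPN at 11.5 CPM. In KT 1 they were E2F7 at 10.7 CPM, GINS4 at 14.9 CPM, POLA2 at 26.6 CPM, PRIM1 at 19.2 CPM, RFC5 at 20.1 CPM and CHAF1A at 32.5 CPM. The others were E2F1 at 13.6 CPM in HC 2, which was high, CCNE1 at 9.33 CPM in HC 3, which was low, and POLE at 55.5 CPM in HT 3, which was low.

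The inhibitor effect differed between the diets by edgeR's test of the difference itself, with an adjusted p under 0.05, for 38 of the 49 genes. The 24 of them whose full statistics the report gives are listed here as the log2 effect on the ketogenic diet (KT over KC) minus that on the high fat diet (HT over HC). The values were CCNE2 at −2.36, RRM2 at −2.33, UHRF1 at −2.18, MCM10 at −2.05, E2F1 at −1.91, CLSPN at −1.90, MCM5 at −1.87, CDC6 at −1.82. Next came DTL at −1.80, GINS2 at −1.76, TK1 at −1.71, CDC45 at −1.61, MCM2 at −1.48, CHAF1A at −1.46, ORC1 at −1.40, POLE2 at −1.38. The smallest differences were GMNN at −1.33, E2F7 at −1.28, PCNA at −1.27, RFC3 at −1.09, TYMS at −1.06, LIG1 at −1.04, POLD3 at −0.83 and CCNE1 at −0.62. The HC libraries, whose mean was the lowest of the 4 groups in all 49 genes, enter each of these differences.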

How the results depend on the processing

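For HT over HC 43 to 47 genes were called higher under every alternative but 2: 49 with library size alone and 29 against a 1.5-fold minimum. Over all genes tested, those 2 alternatives called 4856 and 451 higher. For KC over HC 34 to 48 of the 49 were called (34 without KC 2), with 2 exceptions. These were 1 against the 1.5-fold minimum and 0 without the 3 libraries over 30% ribosomal RNA. Over all genes tested, 10 of 16012 and 0 of 16367 were called in those 2 fits. KT against KC gave 0 calls throughout, and KT against HT 0 apart from 1 lower with limma voom. The difference of effects was lower for 14 to 43 of the 49 over the fits without 1 library, and for 24 with library size alone. It was lower for 1 with the ribosomal RNA covariate, 0 without the 3 libraries over 30% and 0 against the 1.5-fold minimum. Over all genes tested, library size alone called 238, the covariate 30, leaving out the 3 libraries 0 and the 1.5-fold minimum 1. The causes were not tested. With the replicate block, 46 (HT over HC), 0 (KT against KC), 45 (KC over HC), 0 (KT against HT) and 42 (difference) were called; the numbers did not pair the samples. Scaling by library size alone moved the median of all genes to 0.25 (HT over HC), 0.28 (KT over KC), 0.15 (KC over HC) and 0.19 (KT over HT) on the log2 scale.

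For KT over KC, the median of the 49 genes turned sign with the ribosomal RNA covariate (0.41), library size alone (0.27) and limma voom (0.08). It also did so without the 3 libraries over 30% ribosomal RNA (0.06), without KT 1 (0.12), KC 1 (0.06) or KC 2 (0.06). Without KT 4, KT 1 and HC 4 it was 0.17. For KT over HT it turned sign with the covariate (0.19) and library size alone (0.05). It also did so without KT 1 (0.02) and without KT 4, KT 1 and HC 4 (0.06). Each gave 0 calls, and the report gives the main values. Among single genes, for KT over KC, MCM2 was 0.0523 and E2F7 0.0541 with library size alone, MCM2 was 0.13 with the covariate, and they were 0.0772 and 0.0172 without KT 4, KT 1 and HC 4, the libraries least like their group, an alternative chosen after seeing the data, under which CDC7 was 0.0350 in the difference. For KT over HT, TK1 ran from −0.0551 to 0.33 over the fits without 1 library. The lowest estimated count of any of the 49 genes in a library was 31.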
